A study of Arabidopsis thaliana with 4 samples.

Results

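The 34 genes described here make, perceive and transmit the gaseous hormone ethylene in Arabidopsis thaliana. They form a list of loci set by function, with no measured value in its rule, and comprise 9 ACC synthases, 5 ACC oxidases, 5 ethylene receptors, 9 signalling genes and 6 ethylene response factors (ERFs). All 34 were on the array, among 25410 loci that its probes name, and 31 were measured, which means well above background in at least 1 dye channel on at least 2 arrays. The genes without a usable measurement were ACS4 (AT2G22810), ACS5 (AT5G65800) and ACS9 (AT3G49700), all ACC synthases.

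Whole-genome oligonucleotide arrays with 2 colours compared Al-treated with untreated plants of the wild type, ecotype Columbia-0 (Col-0), and of a Columbia-0 transformant expressing AvSAMS1 (AvSAMS1 TF). AvSAMS1 is an S-adenosylmethionine (SAM) synthetase gene from the grass Andropogon virginicus, and the methods place it under the 35S promoter, which is active in most tissues, in a homozygous line named TF6, which would be 1 insertion event. The series description can also be read as 2 transgenic lines, so it is not settled whether both AvSAMS1 TF arrays hold the same line. Plants about 3 weeks old, grown in soil at 16 h light, received an aluminum chloride solution of pH 4.2 for 2 days or no Al. The labels give its concentration as 300 mM, whereas the methods give the same number in µM. Each line had 2 arrays, 1 from each of 2 experiments with separate pools of plants, always with untreated RNA in Cy3 and Al-treated RNA in Cy5, so dye and treatment cannot be told apart in a single ratio. By the labels, the untreated plants were taken at day 0 in experiment 1 and at day 2 in experiment 2, and the treated plants at day 2 in both, whereas the methods describe 2 days with or without Al for all plants. Experiment, labelled sampling day of the untreated plants, scanner software version and slide changed together and cannot be told apart. By the methods, each line had its own slide in experiment 1, while both lines shared a slide in experiment 2. The tissue is labelled as whole plants, while the labelling protocol names shoots. All 13 photosynthesis genes of a leaf list gave signal above background everywhere, in Cy3 and Cy5, against 5 of 15 genes of a root list.

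Ethylene is made from SAM, the product of the enzyme that AvSAMS1 encodes. ACC synthases turn SAM into 1-aminocyclopropane-1-carboxylic acid (ACC), usually the limiting step, and ACC oxidases turn ACC into ethylene. The receptors sit in the endoplasmic reticulum and, without ethylene, keep the kinase CTR1 active, which holds back EIN2. When ethylene binds, EIN2 signals to the nucleus, the transcription factors EIN3 and EIL1 escape destruction by the F-box proteins EBF1 and EBF2, and ERFs are switched on. In roots, ethylene is known as part of the growth arrest caused by Al.

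For more of these genes the 2 experiments did not overlap than the 2 lines, and the same held over all loci. Values are log2 ratios of Al-treated to untreated plants, so that 1 stands for a doubling and −1 for a fall to 0.5-fold. Both AvSAMS1 TF ratios lay above both of Col-0 for 0 of the 31 measured genes (15.5% of loci) and below both for 4 (11.3%). In experiment 1, ACC synthase and ERF transcripts were mostly lower in Al-treated plants, while in experiment 2 ACS2 and ACS6 were higher in both lines and the ACC oxidases ACO1, AT1G12010 and ACO5 were far lower. Both experiment 2 ratios lay above both of experiment 1 for 18 of the 31 measured genes, against 24.3% of the 21166 loci tested, and below both for 4 genes, against 29.2%. Without the first AvSAMS1 TF array these counts became 20 and 8 genes, against 41.3% and 43.8% of loci. The limma fit of this difference rests on 4 arrays and takes the 2 lines of an experiment as its replicates. By it, no gene of the array differed between the experiments at an adjusted p (Benjamini-Hochberg) under 0.05. At an unadjusted p under 0.05, 11 of the 31 genes did, against 13.3% of loci. This count changed widely with the array left out, as did that over all probes, since an experiment then rested on 1 array.

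**Figure D1:**
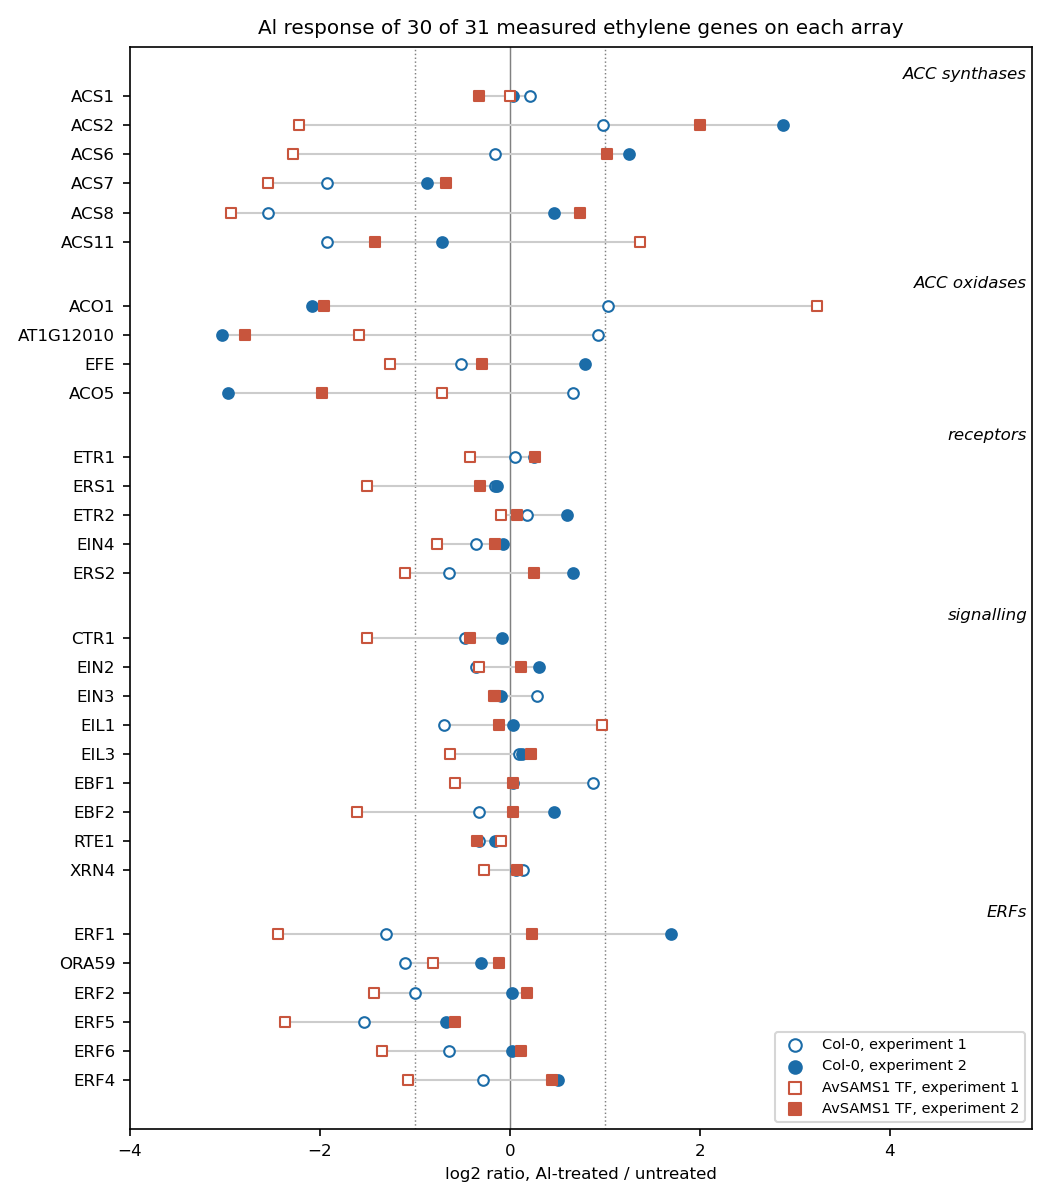
Log2 ratio of Al-treated to untreated plants (horizontal axis) for 30 of the 31 measured ethylene genes (vertical axis, by role) on the 4 arrays; open symbols are experiment 1, filled symbols experiment 2, circles Col-0 and squares AvSAMS1 TF, with dotted lines at 2-fold. Filled circles and squares lie close together for most genes, while the open squares of AvSAMS1 TF in experiment 1 are often the lowest values, as for ACS8 at −2.94.

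Across arrays, the 4 sets of ratios did not resemble each other equally. Over 25773 probes, the correlation was 0.83 between the 2 lines in experiment 2, 0.08 between the lines in experiment 1, 0.48 between the Col-0 arrays, −0.28 between the AvSAMS1 TF arrays and −0.33 between Col-0 in experiment 2 and AvSAMS1 TF in experiment 1. The direction of every ratio follows the dyes in the labels. The first AvSAMS1 TF array also had the lowest share of spots above background in Cy3, 62.1% against up to 77.9%. Transcript levels were measured in bulk tissue, where fewer cells of a type and less RNA per cell cannot be told apart. Markers of tissue moved between the experiments too. The summed untreated level of the root list, Col-0 first, was 14.11 and 13.96 in experiment 1 and 16.17 and 15.83 in experiment 2 (log2 scale). This sum came mostly from 1 gene, PYK10 (AT3G09260), at 13.95 and 13.76, then 15.85 and 15.69. In experiment 2, 8 of the 15 root genes were repressed past 2-fold in both lines, against 4.14% of loci, and PYK10 was not among them. Another root gene was induced past 2-fold in both lines there, against 5.46% of loci. In experiment 1, 2 root genes were induced and 2 repressed past 2-fold in both lines. Some of the 8 repressed genes were dim, so the size of their ratios is uncertain. Untreated PRP1 (AT1G54970), for example, was at 6.43 in Col-0 and 6.58 in AvSAMS1 TF in experiment 2. The unmeasured ACS9 was at 6.17 and 6.02. The median ratio of the leaf list was −1.22 and −0.16 in Col-0 versus 0.96 and 0 in AvSAMS1 TF, experiment 1 first. The part of these markers in the responses of the ethylene genes was not tested.

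Among the ACC synthases, ACS2 (AT1G01480) and ACS6 (AT4G11280) are known targets of stress-activated MAP kinases, which stabilise the enzymes. The ACS2 ratio was 0.98 in Col-0 and −2.22 in AvSAMS1 TF in experiment 1, and 2.88 and 2.00 in experiment 2. In folds, Al-treated plants had 7.38 times the untreated level in Col-0 and 3.99 times in AvSAMS1 TF in experiment 2, whereas AvSAMS1 TF in experiment 1 was 4.66-fold lower with Al. The lines were therefore of one sign in experiment 2 and opposed in experiment 1. For ACS6 the ratios were −0.15 and −2.28 in experiment 1 and 1.26 and 1.02 in experiment 2, Col-0 first. ACS2 and ACS6 were the measured genes of the list induced past 2-fold in both lines in experiment 2, which held for 5.46% of loci.

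ACS7 (AT4G26200), an ACC synthase without the regulatory tail that other members carry, was the ethylene gene with the lowest p for Al in each line. Its ratios were −1.92 and −0.87 in Col-0 versus −2.55 and −0.67 in AvSAMS1 TF, experiment 1 first. All 4 arrays were thus below 0, and the lower 2 were those of experiment 1. Col-0 averaged −1.39 ± 0.74 (SD, n = 2), and AvSAMS1 TF −1.61 ± 1.32 (SD, n = 2). Averaged over both lines the log2 ratio was −1.50 with a standard error of 0.42, and the limma adjusted p was 0.521 (unadjusted 0.0227).

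ACS8 (AT4G37770), an ACC synthase also known to respond to auxin, had the lowest p of the list for a difference between the experiments. Its ratios were −2.55 and −2.94 in experiment 1, which is 5.86- and 7.68-fold lower with Al, and 0.47 and 0.74 in experiment 2, Col-0 first. The difference, experiment 2 minus experiment 1, was 3.35 (log2 scale) with a standard error of 0.31 and a limma adjusted p of 0.252 (unadjusted 0.000518). That adjusted p was shared by 411 probes, of which 46 had a lower unadjusted p. The other measured members were less orderly. ACS11 (AT4G08040) had ratios of −1.92 and −0.71 in Col-0 versus 1.37 and −1.42 in AvSAMS1 TF, experiment 1 first. ACS1 (AT3G61510) lay between −0.32 and 0.21 and was near background, with the untreated channel above it on 2 arrays.

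Levels in the separate channels showed where the ACC synthase ratios parted. The untreated level of ACS8 was 9.38 and 11.92 on the normalized log2 scale in experiment 1 and 7.91 and 7.92 in experiment 2, Col-0 first, while the treated level was 7.63, 9.25, 8.33 and 8.56 in the same order. Untreated ACS2 was at 9.79 and 12.25 in experiment 1 and 7.06 and 8.07 in experiment 2. In treated plants ACS2 lay between 9.10 and 10.67. ACS6 and ACS7 had the same order, with untreated levels of both experiment 1 arrays above both of experiment 2. Over the 6 measured ACC synthases, the median gap between the experiments, experiment 1 minus experiment 2, was 2.44 in untreated and 0.51 in treated plants, against −0.04 and −0.04 over all loci. Across the list, untreated levels were higher on both experiment 1 arrays for 15 of 31 genes (24.8% of loci) and lower on both for 5 (26.1%). Treated levels were higher on both for 9 genes (20.9%) and lower on both for 8 (24.4%).

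**Figure D2:**
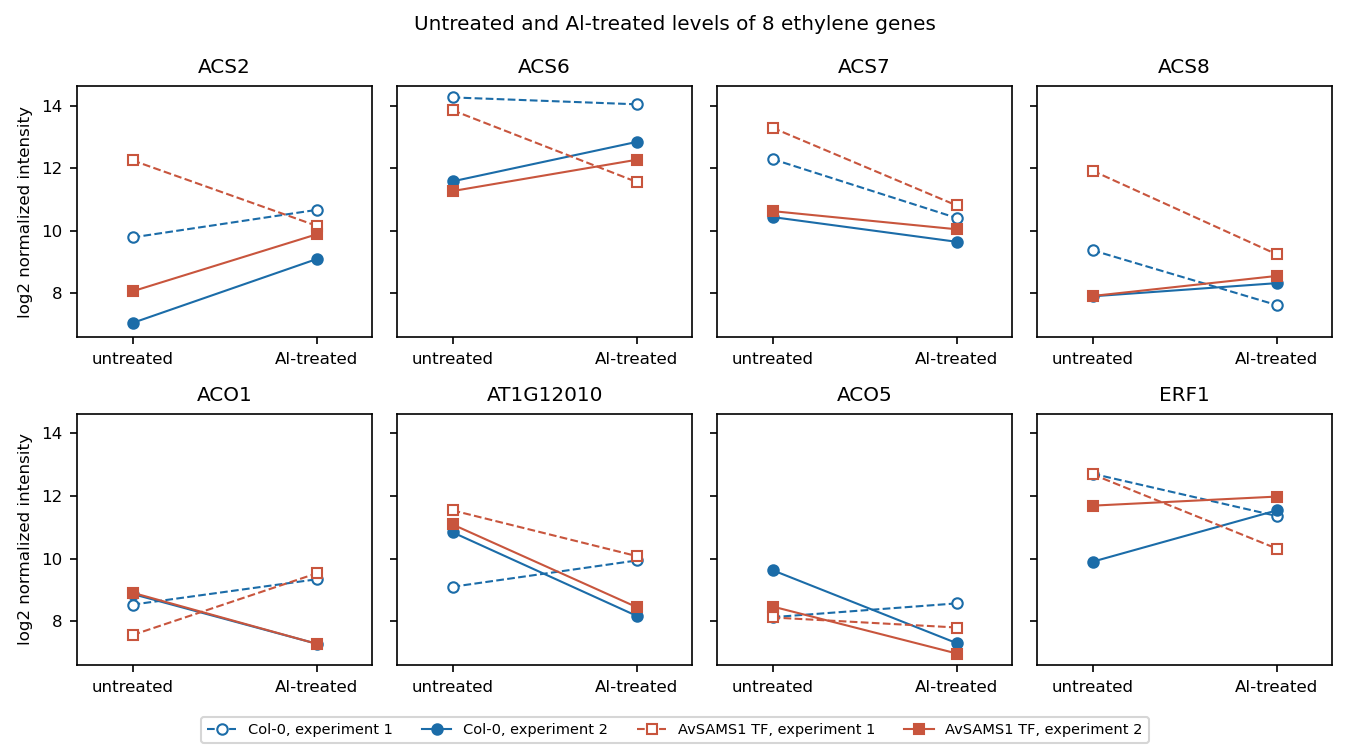
Normalized log2 intensity (vertical axis) of 8 ethylene genes in untreated and Al-treated plants (horizontal axis); each line joins both channels of 1 array, dashed for experiment 1 and solid for experiment 2. The untreated ACC synthase levels split by experiment, for example ACS2 at 9.79 and 12.25 against 7.06 and 8.07, and the treated levels lie closer together.

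Most ACC oxidases had the opposite order of the experiments. ACO1 (AT2G19590) had ratios of 1.04 in Col-0 and 3.24 in AvSAMS1 TF in experiment 1, and −2.08 and −1.96 in experiment 2. Its untreated channel was not above background on the AvSAMS1 TF array of experiment 1, so the size of that ratio is uncertain. The difference between the experiments was −4.16 with a standard error of 0.84 (limma adjusted p 0.273, unadjusted 0.00878). ACO1 was the only gene of the list induced past 2-fold in both lines in experiment 1, as were 4.37% of loci.

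AT1G12010, another ACC oxidase, had ratios of 0.93 and −3.03 in Col-0 versus −1.59 and −2.79 in AvSAMS1 TF, experiment 1 first. In experiment 2 Al-treated plants were 8.15-fold lower in Col-0 and 6.92-fold lower in AvSAMS1 TF, and in experiment 1 AvSAMS1 TF alone was lower, by 3.01-fold. AT1G12010 was the single gene of the list past 2-fold on both arrays of a line, repressed in AvSAMS1 TF, as were 1.46% of loci. Its fitted log2 ratio there was −2.19 with a standard error of 1.06 and a limma adjusted p of 0.991. The contrast between the lines was −1.14 with a limma adjusted p of 0.999 (unadjusted 0.489).

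ACO5 (AT1G77330) had ratios of 0.67 and −2.97 in Col-0 versus −0.71 and −1.98 in AvSAMS1 TF. Between the experiments it differed by −2.45 with a standard error of 0.66 (limma adjusted p 0.307, unadjusted 0.0230). ACO1, AT1G12010 and ACO5 were the genes repressed past 2-fold in both lines in experiment 2, against 4.14% of loci. These 3 genes had higher treated levels on both experiment 1 arrays than on both of experiment 2. EFE (AT1G05010), also called ACO4, had −0.51 and 0.79 in Col-0 versus −1.26 and −0.29 in AvSAMS1 TF, experiment 1 first.

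By the brightest probe of each, transcripts of the 5 receptors had ratios between −0.31 and 0.67 in experiment 2. By these probes all 5 were lower in AvSAMS1 TF than in Col-0 in experiment 1, with a receptor median of −0.77 against −0.16 in Col-0. A dim ETR1 probe was higher in AvSAMS1 TF there. ERS1 (AT2G40940) had the widest gap there, −1.50 in AvSAMS1 TF and −0.16 in Col-0, and in experiment 2 it was at −0.31 and −0.13. ERS2 (AT1G04310) had −0.64 and 0.67 in Col-0 versus −1.10 and 0.26 in AvSAMS1 TF, experiment 1 first, a difference between the experiments of 1.33 with a standard error of 0.34 (limma adjusted p 0.298, unadjusted 0.0187). A dimmer ERS2 probe, above background on 2 arrays in each channel, gave −1.63 and 0.58 in Col-0 versus −2.26 and −0.05 in AvSAMS1 TF. By the brightest probe, treated levels of ERS2 lay between 10.51 and 10.66 on the 4 arrays, and the untreated levels were 11.29 and 11.63 in experiment 1 and 9.82 and 10.30 in experiment 2. ETR1 (AT1G66340), the founding member of the family, stayed between −0.42 and 0.27, ETR2 (AT3G23150) between −0.09 and 0.60, and EIN4 (AT3G04580) between −0.77 and −0.07. By its brightest probe, no receptor passed 2-fold on both arrays of a line or of an experiment, but the dim ERS2 probe did so in experiment 1.

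Of the 9 signalling genes, 7 stayed within 2-fold on all 4 arrays, as did 11 of the 31 measured genes of the list and 53.8% of all loci. EIN2 (AT5G03280) lay between −0.36 and 0.31, EIN3 (AT3G20770) between −0.17 and 0.29, EIL1 (AT2G27050) between −0.69 and 0.97, and EIL3 (AT1G73730), an EIN3 relative known from sulphur nutrition, between −0.63 and 0.22. RTE1 (AT2G26070), a membrane protein that acts with ETR1, was between −0.34 and −0.09. XRN4 (AT1G54490), the exoribonuclease also called EIN5, was between −0.27 and 0.14. RTE1 and XRN4 had the narrowest ranges of the step. Both genes that passed 2-fold did so on the first AvSAMS1 TF array alone. CTR1 (AT5G03730) was at −0.47 and −0.08 in Col-0 versus −1.50 and −0.42 in AvSAMS1 TF. EBF2 (AT5G25350) was at −0.32 and 0.47 in Col-0 versus −1.61 and 0.03 in AvSAMS1 TF. For EBF1 (AT2G25490) the probes disagreed. The brighter probe gave 0.88, 0.03, −0.58 and 0.03 and the other −0.73, 0.55, −0.77 and 0.22, in the order Col-0 then AvSAMS1 TF, and they differed by up to 1.61.

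All 6 ERFs had both experiment 2 ratios above both of experiment 1. ERF1 (AT3G23240), a direct target of EIN3, had −1.30 and −2.44 in experiment 1 and 1.70 and 0.23 in experiment 2, Col-0 first, a difference of 2.84 with a standard error of 0.72 (limma adjusted p 0.298, unadjusted 0.0187). Its untreated level was 12.71 and 12.69 in experiment 1 and 9.90 and 11.69 in experiment 2. Its treated level was 11.36 and 10.32, then 11.54 and 11.98, so the experiments parted in both channels. Over the 6 ERFs the median gap, experiment 1 minus experiment 2, was 0.85 in untreated and −0.99 in treated plants. ERF2 (AT5G47220) had −1.0 and −1.43 in experiment 1 and 0.02 and 0.18 in experiment 2, a difference of 1.32 with a standard error of 0.30 (limma adjusted p 0.288, unadjusted 0.0138). ERF5 (AT5G47230), a stress-responsive activator, was below 0 on all 4 arrays, at −1.53 and −2.37 in experiment 1 and −0.67 and −0.58 in experiment 2. Averaged over the lines, ERF5 was −1.29 with a standard error of 0.39 (limma adjusted p 0.537, unadjusted 0.0304).

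ERF6 (AT4G17490), a relative of ERF5, had −0.64 and −1.34 in experiment 1 and 0.02 and 0.12 in experiment 2, and its second probe had the other sign on 2 arrays. The repressor ERF4 (AT3G15210) had −0.28 and −1.07, then 0.51 and 0.44. ORA59 (AT1G06160), where ethylene and jasmonate signals meet, was below 0 on all 4 arrays, at −1.10, −0.30, −0.81 and −0.11 in the order Col-0 then AvSAMS1 TF, and had lower levels in experiment 1 in both channels. Its untreated level was 9.69 and 9.40 in experiment 1 against 11.69 and 12.28 in experiment 2. It was the only ERF with both untreated levels of experiment 1 below both of experiment 2, while treated levels had that order for ERF1, ERF2 and ERF5 as well. ACS7, ACS8, ERF1, ERF2 and ERF5 were repressed past 2-fold in both lines in experiment 1, 5 of 31 genes against 2.53% of loci, with ERF2 in Col-0 just at the threshold.

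The 2 experiments gave opposite signs, in both lines, for 10 genes. ACS6, ACS8, ERS2, EIN2, EBF2, ERF1, ERF2, ERF6 and ERF4 were lower with Al in experiment 1 and higher in experiment 2, 9 of 31 genes against 7.41% of loci. With normexp and median centring, which moved the median of all loci up to between 0.23 and 0.27, this count was also 9, but ACS6 in Col-0 and EIN2 in AvSAMS1 TF turned to 0.06 and 0.09 in experiment 1. ACO1 alone had the reverse order, against 11.6% of loci. Ratios below 0 on all 4 arrays were found for ACS7, ERS1, EIN4, CTR1, RTE1, ORA59 and ERF5, 7 of 31 genes against 9.71% of loci. A second ERS1 probe did not hold this pattern, being at 0.1 in Col-0 in experiment 2. With median centring 3 genes had that pattern, and of these 7 only ACS7 and ERF5 kept it.

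**Figure D3:**
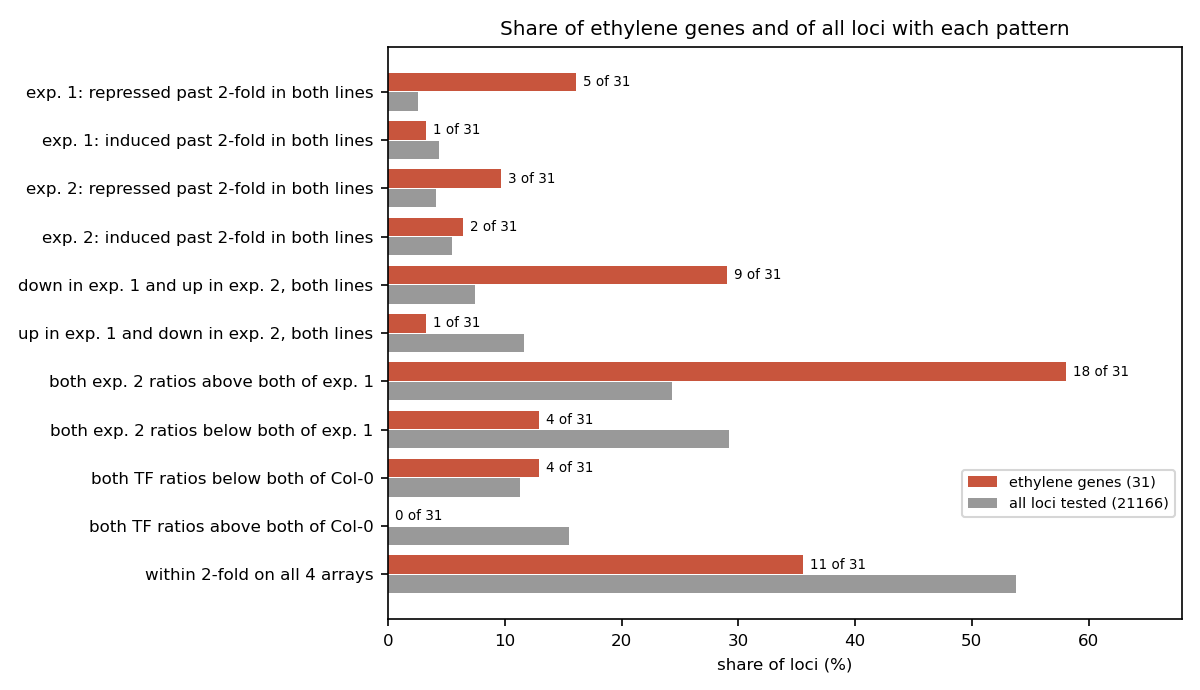
Share (horizontal axis, %) of the 31 measured ethylene genes and of the 21166 loci tested that met each pattern named on the vertical axis. The widest gap is that of both experiment 2 ratios above both of experiment 1, 18 of 31 genes against 24.3% of loci. Of the line patterns, both AvSAMS1 TF ratios lay above both of Col-0 for 0 genes against 15.5% of loci, and below for 4 against 11.3%.

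With regard to the Al response of each line, no gene of the list passed 2-fold on both Col-0 arrays. Over all loci 3.69% were induced and 2.45% repressed on both. In AvSAMS1 TF none was induced past 2-fold on both arrays (0.954% of loci). No probe of the array reached an adjusted p under 0.05 for Al in Col-0, in AvSAMS1 TF, averaged over the lines or between the lines by limma, 0% in each. At an unadjusted p under 0.05, 0 genes of the list were called in Col-0 (7.34% of loci), 0 in AvSAMS1 TF (3.46%), 0 between the lines (0.940%) and 2 averaged over the lines (8.58%), namely ACS7 and ERF5. With the experiment as a block these counts were 4, 6, 2 and 7, again with no adjusted p under 0.05. The block raised calls over the whole array too. Of 34724 probes, those at an unadjusted p under 0.05 by limma rose from 2615, 1207, 334 and 3128 to 4098, 3290, 896 and 5305, in the same order.

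The lines were then compared with each other. In experiment 1 each line was on its own slide, so line and slide cannot be told apart there. The ratios of AvSAMS1 TF lay below both of Col-0 on both arrays for ACS1, ERS1, ETR2 and EIN3, 4 of 31 genes against 11.3% of loci, and above both for 0 genes against 15.5%. In experiment 1, 24 of 31 genes were lower in AvSAMS1 TF (48.5% of loci), 9 of them past 2-fold (15.8%), and 3 others were higher past 2-fold (20.9%), with a median difference of −0.48 (0.01 over all loci). In experiment 2, with both lines on 1 slide, the median difference was −0.09 (0.03 over all loci), 2 genes were lower past 2-fold (3.76% of loci) and 0 higher (3.73%). The lowest p for a difference between the lines was that of EBF1, −0.73 with a standard error of 0.51 (limma adjusted p 0.999), a gene whose probes disagreed.

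**Figure D4:**
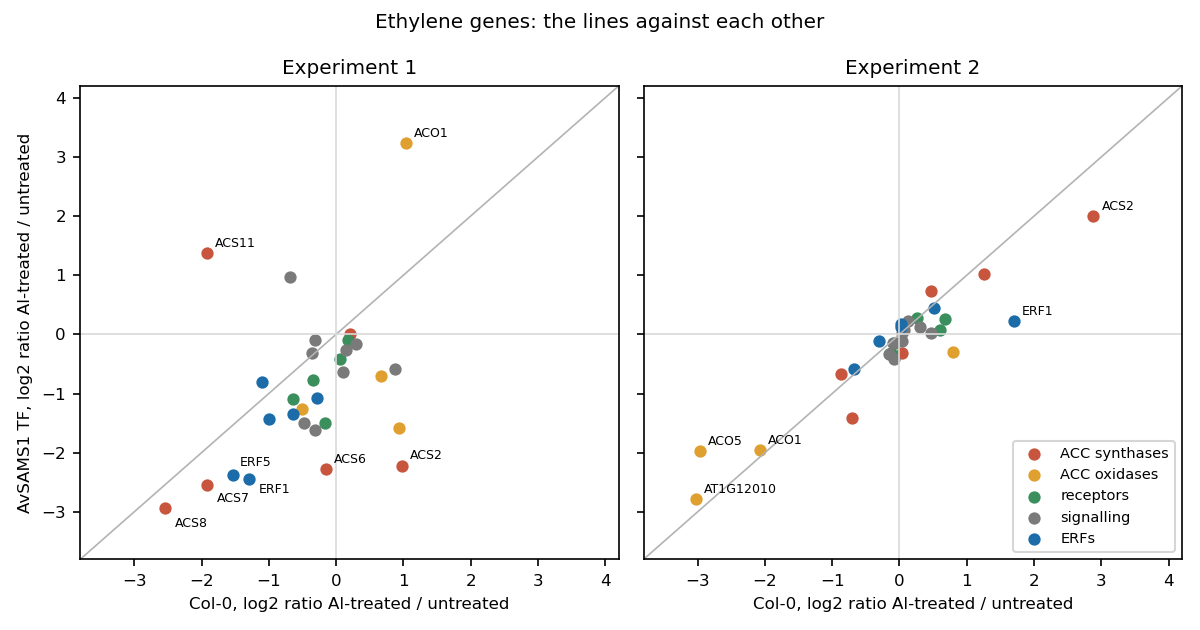
Log2 ratio of Al-treated to untreated plants in Col-0 (horizontal axis) and AvSAMS1 TF (vertical axis) for 30 of the 31 measured ethylene genes, 1 panel per experiment, coloured by role, with the diagonal of equal response. In experiment 2 the genes follow the diagonal, with the ACC oxidases AT1G12010, ACO5 and ACO1 at the lower end and ACS2 at the upper, while in experiment 1 most genes lie below it.

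Without Al, the lines were compared through the Cy3 channel. CTR1 was higher in untreated AvSAMS1 TF, at 11.68 and 11.50 against 10.46 and 10.13 in Col-0 on the normalized log2 scale. The groups did not overlap, and the difference was 1.29 with a standard error of 0.28, with a limma adjusted p of 0.385 (unadjusted 0.00796). EFE, the ACC oxidase, had 15.75 and 15.69 against 15.12 and 14.63, a difference of 0.85 with an adjusted p of 0.667. These 2 genes were those of the list with an unadjusted p under 0.05 (6.49% of loci), and 0 passed at an adjusted p, against 0.165% of loci. With the experiment as a block 4 genes had an unadjusted p under 0.05, while the probes called rose from 2530 to 6276 of 34724. Untreated levels were above both Col-0 arrays on both AvSAMS1 TF arrays for AT1G12010, EFE, ETR2, CTR1 and EIN3 (14.3% of loci) and below for ACS1, ACS11, EIN2, EBF1 and ERF2 (21.8%).

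Genes around the pathway were examined as further lists. Of 14 regulators of ethylene synthesis and signalling, such as ETO1, which marks ACC synthases for breakdown, 10 were measured and 0 passed 2-fold on both arrays of a line. The Yang cycle recycles the methylthio group that ACC synthase releases from SAM. All 9 of its genes were measured, and ARD3 (AT2G26400), an acireductone dioxygenase of that cycle, was induced past 2-fold on both AvSAMS1 TF arrays (0.954% of loci). The ARD3 ratio was 2.03 and 0.77 in Col-0 versus 5.12 and 3.18 in AvSAMS1 TF, experiment 1 first. Its values do not overlap between the lines, with a difference of 2.75, a standard error of 0.89 and a limma adjusted p of 0.999 (unadjusted 0.0365). Both AvSAMS1 TF ratios lay above both of Col-0 for 15.5% of loci. ARD3 was named because it passed 2-fold in AvSAMS1 TF, which favours a higher ratio there, so its gap is no evidence of a difference between the lines. ARD3 was dim, above background in the untreated channel on 3 of 4 arrays, and with normexp and loess the ratios were 1.57 and 0.24, then 1.89 and 2.64, a difference between the lines of 1.36. Among 15 other ethylene-responsive AP2/ERF transcription factors, 0 passed 2-fold on both arrays of a line, and ERF104 and AT5G51190 were repressed past 2-fold in both lines in experiment 1 (2.53% of loci).

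Of 7 target genes of ethylene and jasmonate, 2 were induced past 2-fold on both Col-0 arrays (3.69% of loci), the basic chitinase HCHIB (AT3G12500) and the hevein-like PR4 (AT3G04720). HCHIB had ratios of 2.98 and 2.56 in Col-0 versus 0.68 and 0.94 in AvSAMS1 TF, experiment 1 first. Its untreated level was 11.74 and 11.26 in Col-0 versus 13.54 and 14.12 in AvSAMS1 TF, and its treated level 14.63 and 13.82 against 14.21 and 15.12. The lines thus did not overlap without Al, where both AvSAMS1 TF levels lay above both of Col-0 for 14.3% of loci, and overlapped with Al. Between the lines the Al response of HCHIB differed by −1.96 with a standard error of 0.39 (limma adjusted p 0.999, unadjusted 0.00749), and the untreated level by 2.33 with a standard error of 0.36 (adjusted p 0.201). PR4 had ratios of 1.36 and 1.71 in Col-0 versus −0.21 and 0.50 in AvSAMS1 TF, and an untreated level of 15.74 and 14.43 against 16.84 and 16.13. None of the other 5 passed 2-fold on both arrays of a line, and the 3 PDF1.2 defensin genes, which are near-identical in sequence, had opposite signs in the 2 experiments of each line. HCHIB and PR4 were named because they passed 2-fold on both Col-0 arrays, so a like direction in both Col-0 experiments followed from that choice. That choice also favoured higher ratios and lower untreated levels in Col-0 than in AvSAMS1 TF. The gaps between the lines for these 2 genes, and their p-values, are therefore no evidence of a difference between the lines.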

How the data were processed

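Total RNA of Al-treated (Cy5) and untreated (Cy3) plants was hybridised to 4 two-colour Agilent arrays, and Feature Extraction was run by the authors, version 11.0.1.1 for experiment 1 and 10.7.1.1 for experiment 2 per the file headers (the labels' processing notes name 10.7.3.1). The deposited scanner files hold the processed log10 ratio of Cy5 to Cy3 and the intensity of each channel. The deposited series values were the log2 ratio of the processed signals on 100% of probes within 0.01, with medians of 0.103, −0.078, 0.103 and −0.031. Outlier spots (10 to 23 an array) were left out and replicate spots averaged, giving 43603 probes, of which 34348 named 1 of 25410 loci through RefSeq accessions. The probe with the highest mean signal stood for a locus. No gene of the list had a saturated spot.

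Log2 ratios of the 34724 probes above background on at least 2 arrays were fitted with limma 3.58.1 in R 4.3.3 (lmFit, eBayes), with p-values adjusted by Benjamini-Hochberg over these probes. Untreated levels came from the median signal, since the files hold no mean signal, after normexp (offset 50), loess and Aquantile. Arrays of one line came from separate pools of plants. For Al, for the lines and for untreated plants, p-values measure the spread between these pools together with that between the experiments. For the difference between the experiments, the lines served as replicates, and p-values measure the spread between the lines within an experiment. The replicate numbers mark the experiments in the labels, and the differences between experiments correlated at 0.47 between the lines over 34724 probes, so the number was used as a block in an alternative fit. Full statistics are given for up to 10 genes of the list. Those past 2-fold on both arrays of a line came first, then those with the lowest p in any comparison. Values of other genes are given only where they passed 2-fold on both arrays of a line. Exceptions are ERF104, AT5G51190, PYK10 and the PDF1.2 genes, named after their values were seen. The list of ethylene genes was set by function alone, but it and the other lists were drawn up with earlier results of these data known. Statistical code was tested on simulated data. No promoter or protein sequences were used here. One gene of the list is counted but not reported here. With 4 arrays, their number limits the precision.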

Additional observations from a re-analysis of the deposited data

Results flagged for a closer look

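For 10 genes the ratios of both experiment 1 arrays had one sign and those of both experiment 2 arrays the other. The difference in log2 ratio, experiment 2 minus experiment 1, was 2.35 for ACS6, 3.35 for ACS8, −4.16 for ACO1, 1.33 for ERS2, 0.55 for EIN2, 1.22 for EBF2, 2.84 for ERF1, 1.32 for ERF2, 1.06 for ERF6 and 1.15 for ERF4. Some of these ratios were close to 0 in experiment 2, at 0.02 for ERF2 and ERF6 in Col-0 and 0.03 for EBF2 in AvSAMS1 TF. The second ERF6 probe was below 0 on all 4 arrays, at −1, −0.22, −1.75 and −0.33, and a dim ERS2 probe was at −0.05 in AvSAMS1 TF in experiment 2. With median centring ACS6 in Col-0 and EIN2 in AvSAMS1 TF were at 0.06 and 0.09 in experiment 1 and lost the pattern. No gene of the array reached an adjusted p under 0.05 for this difference in the limma fit, and the lowest adjusted p among these genes was 0.252, for ACS8. Other scalings, other filters and an intensity trend in the limma fit also left no probe at an adjusted p under 0.05. With 1 array left out, such probes appeared only without the first Col-0 array, where experiment 1 rests on the first AvSAMS1 TF array alone. No test other than limma was run for this difference. Over all loci, 7.41% were lower with Al on both experiment 1 arrays and higher on both of experiment 2, and 11.6% did the reverse. The labelled sampling day of the untreated plants, the scanner software version and the slide changed with the experiment and cannot be told apart from it.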

How the results depend on the processing

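Of the alternative values, 160 counts and medians stayed within 1.5 times or the spread between replicates and 45 moved further. For values of single genes these numbers were 353 and 19, and for counts of probes at an unadjusted p 29 and 39. No gene past 2-fold on both arrays of a line changed direction, but median centring turned 24 of 124 signs of single ratios, with loess 3. With normexp and median centring, the genes past 2-fold on both arrays of a line became 2 (1 induced in Col-0), the median ratio of the list −0.05 and 0.46 on the Col-0 arrays, and the genes below 0 on all arrays 3. Counts of genes of the list at an unadjusted p under 0.05 moved most. For Al in Col-0 (0) they were 1 with median centring, 4 with the replicate block and 2 with each line alone. For Al in AvSAMS1 TF (0) they were 1 with loess, with median centring, with each line alone and with the methods' t-test, 3 with a stricter filter or an intensity trend, and 6 with the block. Between the lines (0) the block gave 2. Averaged over the lines (2), median centring gave 4, no filter 0 and the block 7. For untreated plants (2) the block gave 4 and the processed signal 1, and over all probes 74 calls became 0 with the stricter filter and 367 with the block. The block changed no other count of adjusted calls. At an unadjusted p under 0.05 by limma it raised the probes called from 2615 to 4098 for Col-0 and from 1207 to 3290 for AvSAMS1 TF. Between the lines the probes rose from 334 to 896, averaged over the lines from 3128 to 5305, and for untreated plants from 2530 to 6276. The methods' t-test called, at its threshold, 2323 probes for Col-0, 1081 for AvSAMS1 TF and 513 between the lines, and 1, 0 and 0 after Benjamini-Hochberg; by limma 2615, 1207 and 334 probes were called at an unadjusted p under 0.05. Leaving out each array in turn gave 0 to 2 genes in Col-0, 0 to 8 in AvSAMS1 TF (8 without replicate 2 of that line), 0 to 4 between the lines (4 without the same array), 1 to 6 averaged (6 without the same array), 1 to 23 between the experiments (23 without Col-0 replicate 1, 1 without Col-0 replicate 2, 2 without AvSAMS1 TF replicate 2), 2 to 4 for untreated plants, and 0 adjusted calls there whichever array was left out. Probes called between the experiments ranged from 0 to 9576, the latter without Col-0 replicate 1, where experiment 1 rests on the first AvSAMS1 TF array alone. Where a line or experiment kept 1 array, that array was assumed to vary like the others. Alternatives chosen after seeing the data left out the first AvSAMS1 TF array, after which both experiment 2 ratios lay below experiment 1 for 8 genes (from 4) and ratios were below 0 on all remaining arrays for 8 (from 7). The slide as a random block was not run because its correlation could not be estimated. Low signal limits ACS1, ACO1 and ARD3, and ACS4, ACS5 and ACS9 were not measured.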
